A study of Mus musculus with 6 samples.

Results

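The genes described here encode fibroblast matrix proteins and proteases that cut them: Dpt, Vcan, Col3a1, Col16a1, Lama5, Mfap4, Cilp, Htra3 and Mmp9. They were chosen by name, 9 of the 817 genes with values in either of the 2 deposited tables. The first table, termed the count list, holds 232 genes and 6 of the 9. The second table, termed the second list, holds 602 genes and also 6 of the 9. Dpt, Lama5 and Htra3 are in both.

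Fibroblasts and the precursors of fat cells surround themselves with a matrix of collagen fibres, proteoglycans and adhesive glycoproteins. Laminins belong to the basement membrane, the thin sheet that each fat cell lays down around itself as it matures. Secreted proteases such as matrix metalloproteinases and the HtrA family trim this matrix, and the loose matrix of the precursor is remodelled during fat cell differentiation.

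RNA was sequenced from 6 libraries of cultured mouse cells, 3 transfected with Lhx8 siRNA (siRNA 1 to 3) and 3 treated with the transfection reagent Turbofectamine (vehicle 1 to 3). The comparison asked which genes change on silencing of Lhx8, a transcription factor of the LIM homeobox family. The labels give the cells as preadipocytes of the line 3T3-L1, with a line number that climbs by one from sample to sample, and give the genotype of the groups as LHX8 deficient and wild-type, whereas the study speaks of cultured adipocytes. All were grown in DMEM with serum, and no time point is given. The series describes these controls by the reagent and names no siRNA for them. The study's methods and some of its legends give a non-silencing siRNA as the control of other assays, in injected fat depots and in cultured cells. Its results section instead describes the control depot as given the reagent only. If the sequenced controls had the reagent alone, silencing of Lhx8 cannot be told apart from the presence of any siRNA. Nothing states that each library is a culture of its own, and the p-values therefore cover the scatter among libraries, possibly technical.

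Lhx8 was not among the genes analysed here, and the knockdown was not checked here. The study itself reports loss of LHX8 immunostaining after Lhx8 siRNA in injected fat depots and in cultured primary mouse adipocytes. Both tables are selections of genes and not whole transcriptomes. The summed count of the count list was 24314 to 25922 in the siRNA libraries, against 24569 and 28919 in vehicle 2 and 1 and 130467 in vehicle 3. In 201 of the 232 genes (86.6%) no library exceeded vehicle 3, which stood at a median of 5.72 times the mean of vehicle 1 and 2. In the second list that median ratio was 1.04, and vehicle 3 was the highest for 28.6% of 273 genes measured in all 6 libraries. Of the 5 count list genes that mark leukocytes, endothelium, epithelium, mesothelium or muscle (Itgb2, Cd207, Clec14a, Msln and Tnnt3, out of 54 written down), 4 were highest in vehicle 3. The summed count of those 5 genes was 728 to 889 in the siRNA libraries. It was 793, 706 and 4410 in vehicle 1, 2 and 3. Most of it was Msln, with 599 to 718 counts in the siRNA libraries and 3698 in vehicle 3. Vehicle 3 held 5.88 times the mean sum of vehicle 1 and 2, near the list median of 5.72. The leukocyte gene Cd207 went the other way, at 58, 78 and 60 counts with siRNA against 47, 45 and 1 with vehicle. Fibroblast and preadipocyte markers were found only in the second list (Pdgfra, Ly6a, Twist2 and Fap, 4 of 12), and so were adipocyte markers (Adipoq, Lpl and Scd1, 3 of 12). Depth behind the second list is unknown.

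In the count list, whose values are estimated read counts, all 6 members had a lower mean with Lhx8 siRNA, and in all 6 vehicle 3 was the highest of the 6 libraries. None of the 6 passed the quasi-likelihood test of edgeR (adjusted p of 0.05), where 0% of the 232 genes passed. An unadjusted p under 0.05 (edgeR) was reached by 3 of the 6 members and 27 of the 232 genes. Without vehicle 3 it was reached by 0 of the 5 members that could be tested and by 22 of 201 genes. With TMM scaling of all libraries it was reached by 2 of the 6 members and 11 of the 232 genes. With its own size factors DESeq2 called 1 gene of the list, which was no member. It called 0 when they were fixed at 1, and so did limma-voom. The list appears to have been selected by the authors for a difference between these groups. In 89.2% of its genes the siRNA mean was lower by 2-fold or more, so the shared direction of the members is not independent evidence.

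Dpt encodes dermatopontin, a small matrix protein that binds decorin and promotes collagen fibril assembly. Its estimated counts were 985, 1324 and 1092 in siRNA 1, 2 and 3, against 1273, 1111 and 8486 in vehicle 1, 2 and 3. The siRNA libraries and the first 2 vehicle libraries covered the same range, and vehicle 3 lay 7.12-fold above the mean of those 2. The log2 fold of siRNA over vehicle was -1.68 ± 0.81 (SE, adjusted p = 0.317, edgeR), and it was -0.07 ± 0.17 without vehicle 3 (adjusted p = 0.854, edgeR).

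Mfap4, a glycoprotein of elastic microfibrils, was close to absent outside vehicle 3. The siRNA libraries held 1, 0 and 0 counts, against 1, 0 and 26 in the vehicle libraries. The summed counts were 1 and 27, a ratio of 0.0370 with an exact 95% interval of 0.000905 to 0.225 that covers counting error only. Without vehicle 3 the groups had summed counts of 1 and 1, both under a floor of 3 counts, and no fold can be given.

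Cilp, which encodes cartilage intermediate layer protein, a matrix protein of cartilage that binds growth factors of the TGF-beta family, showed the same kind of profile. It had 3, 3 and 8 counts in the siRNA libraries, against 4, 0 and 151 in the vehicle libraries. The direction depended on vehicle 3. The log2 fold was -3.43 ± 1.34 with it (adjusted p = 0.317, edgeR) and 1.17 ± 1.12 without it (adjusted p = 0.698, edgeR).

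Lama5 encodes the laminin alpha 5 chain, a subunit of basement membrane laminins. The siRNA libraries gave 15, 25 and 28 counts, against 24, 31 and 150 in vehicle 1, 2 and 3, and the ranges overlapped. The log2 fold was -1.59 ± 1.10 (adjusted p = 0.317, edgeR) and -0.28 ± 0.35 without vehicle 3.

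The 2 proteases differed in how the first 2 vehicle libraries stood to the siRNA libraries. Mmp9, which encodes the gelatinase matrix metalloproteinase 9, was counted 186, 211 and 154 times in the siRNA libraries, against 146, 120 and 881 times in the vehicle libraries. All 3 siRNA libraries were above vehicle 1 and 2 and below vehicle 3, and without vehicle 3 the siRNA values lay wholly above for 14.7% of the list. Its log2 fold was accordingly -1.06 ± 1.01 over all libraries (adjusted p = 0.330, edgeR) and 0.47 ± 0.21 without vehicle 3 (adjusted p = 0.441, edgeR). Htra3, a secreted serine protease of the HtrA family, was counted 9, 5 and 9 times in the siRNA libraries, against 11, 19 and 179 times in the vehicle libraries. Here every siRNA library was below every vehicle library. Htra3 was the only member without overlap in the count list, where the groups lay apart in that direction for 12.5% of the genes (12.9% without vehicle 3) and in the other for 6.03%. Its log2 fold was -3.16 ± 1.20 (adjusted p = 0.317, edgeR) and -0.96 ± 0.43 without vehicle 3 (adjusted p = 0.441, edgeR). In an exact two-sided permutation test of the logged counts Htra3 gave p = 0.1, the smallest that 3 against 3 libraries allow, and the p of the other 5 members was 0.3 to 1.

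**Figure D1:**
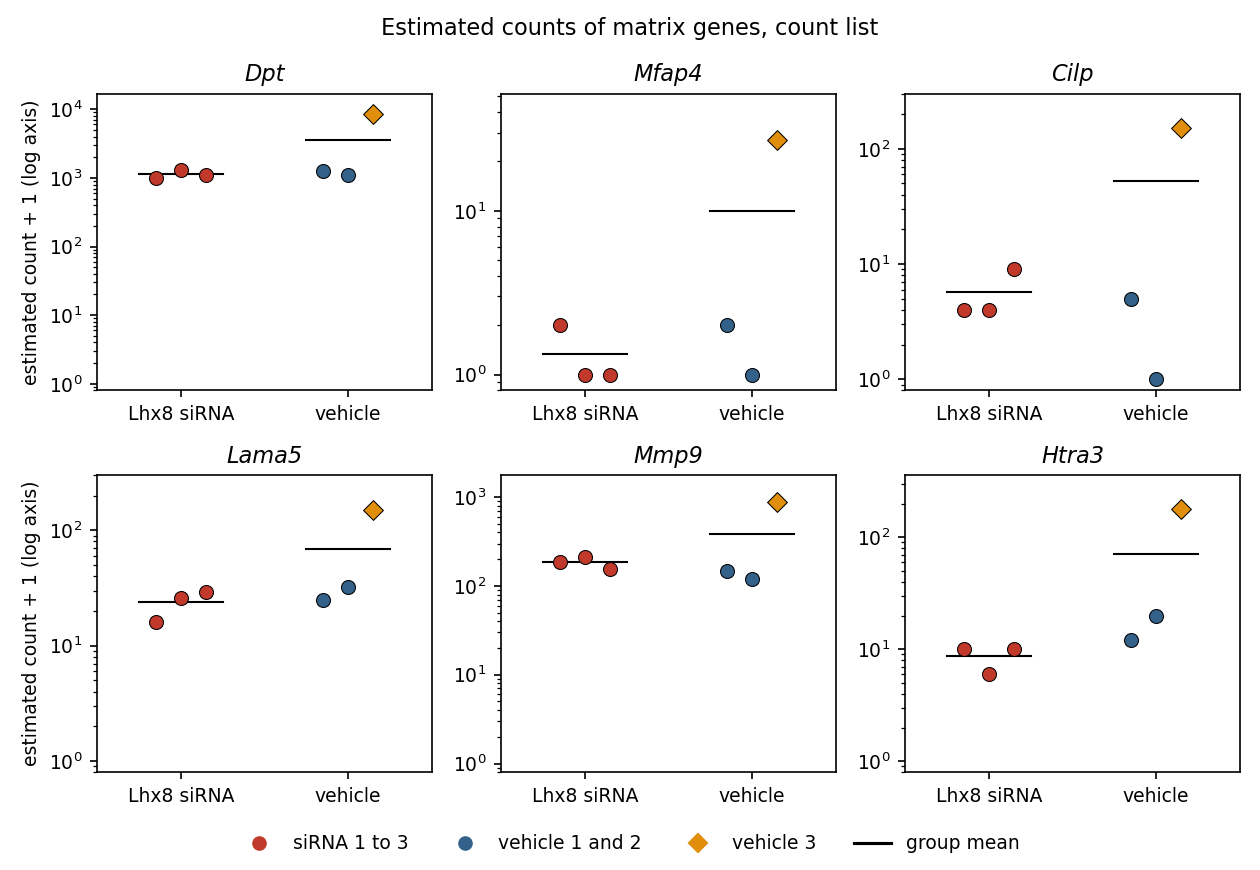
Estimated counts plus 1 (log axis) of the 6 members in the count list, with Lhx8 siRNA (left) and vehicle (right). Each point is a library, vehicle 3 is the diamond and the line is the arithmetic mean of the 3 libraries. In every panel vehicle 3 lies above the other 5 libraries, and for Htra3 alone do the other 2 vehicle libraries also exceed all siRNA libraries.

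Set per kilobase of the longest listed transcript found in GENCODE M21, so that genes can be compared, Dpt was by far the most abundant of the 6. It had 658 counts per kilobase in the siRNA mean and 691 in the mean of vehicle 1 and 2. Mmp9 followed with 57.8 and 41.9 counts per kilobase. Htra3 had 2.79 and 5.45, Lama5 1.99 and 2.41, Cilp 1.12 and 0.482, and Mfap4 0.194 and 0.290 counts per kilobase. With so few reads, the order among the last 4 is not secure.

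The members took their place in a list that shared the excess in vehicle 3. By the ratio of vehicle 3 to the mean of vehicle 1 and 2, Cilp (75.5) and Mfap4 (52.0) ranked 5 and 7 of the 222 genes for which the ratio exists. Htra3 (11.9) ranked 49, Dpt 88, Mmp9 (6.62) 98 and Lama5 (5.45) 119. The median log2 fold of the 6 was -2.42, against -1.55 over the list. Scaled by TMM, which takes the typical gene of the list as unchanged, the median of the list moved to -0.12 and that of the members to -0.64, and Mmp9 turned to 0.48. The list then held 141 negative and 91 positive folds, in place of 207 and 25. Without vehicle 3, the median was -0.07 for the 5 members that could be tested (3 negative, 2 positive) and -0.10 for the list.

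**Figure D2:**
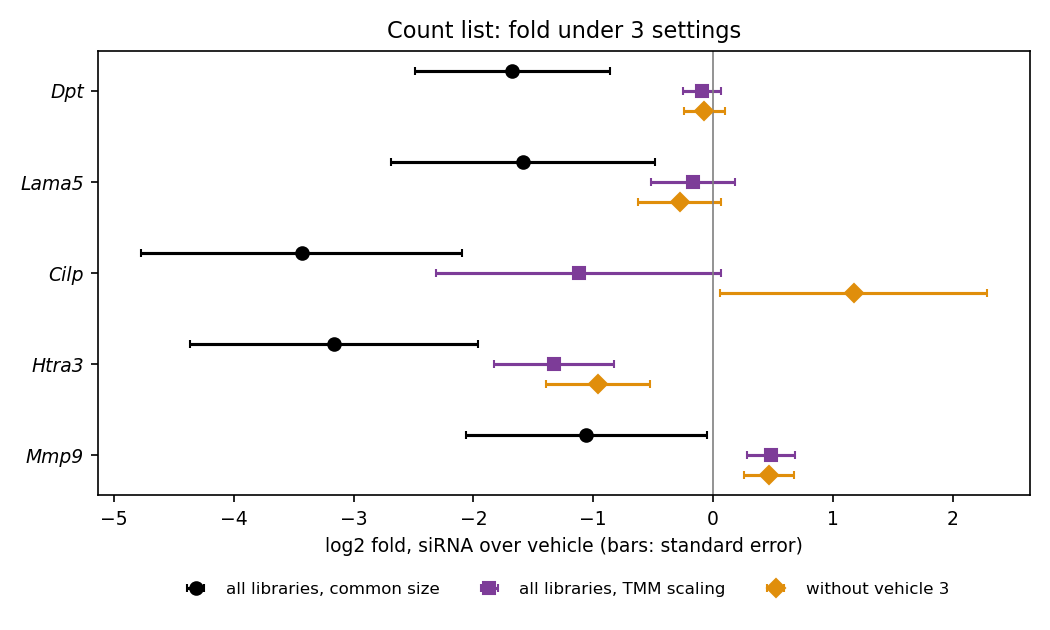
Log2 fold of siRNA over vehicle with its standard error for the 5 count list members that could be fitted without vehicle 3. Circles are all libraries with a common size, squares all libraries scaled by TMM and diamonds the fit without vehicle 3. The fold of Dpt is -1.68 with all libraries and -0.07 without vehicle 3, and Cilp and Mmp9 change sign.

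The profile of Dpt over the 6 libraries was most like that of Clec14a, an endothelial lectin, and next that of Rab3il1, with a root mean square difference of 0.09 and 0.14 between centred log2(count + 1) values, where the median gene of the list was 0.51 away. Lama5 was closest to Ogn, the small proteoglycan osteoglycin (0.18). The nearest profile to Cilp was that of Enpp1 (0.49), to Htra3 that of Tafa3 (0.32) and to Mfap4 that of Ces1a (0.22). These likenesses describe 6 libraries, of which vehicle 3 carries most of the variation.

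The second list gives values headed as read counts, on an unstated scale, and its libraries stood close together. Of the 6 members in it, 4 were lower with Lhx8 siRNA (Vcan, Dpt, Htra3 and Col3a1) and 2 were higher (Lama5 and Col16a1). All 6 passed limma's test at an adjusted p of 0.05, in a list where 98.4% of the 496 tested genes passed, 48.8% lower and 49.6% higher (242 and 246 genes, or 184 and 251 with libraries centred on their median). A pass in this list therefore says nothing particular about the members. The adjusted p-values below were taken within this selected list and are not independent evidence of a change. In all 6 the siRNA values lay wholly apart from the vehicle values, as they did for 96.8% of the tested genes (48% lower and 48.8% higher) and, among genes with all 6 values, for 97.4% (53.5% lower and 44% higher). The log2 differences below are of the value plus 0.1, siRNA minus vehicle.

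The 3 promoters shown are those of the members with the largest fall (Dpt and Vcan) and the largest rise (Lama5) in the second list, as the 250 bases before the RefSeq gene start on GRCm38.p6, 5′ to 3′ on the strand of the gene. Capitals mark CANNTG, the E-box read by MyoD1 and related factors, a motif that reads alike on both strands.
Dpt (chr1:164796413-164796662, plus strand): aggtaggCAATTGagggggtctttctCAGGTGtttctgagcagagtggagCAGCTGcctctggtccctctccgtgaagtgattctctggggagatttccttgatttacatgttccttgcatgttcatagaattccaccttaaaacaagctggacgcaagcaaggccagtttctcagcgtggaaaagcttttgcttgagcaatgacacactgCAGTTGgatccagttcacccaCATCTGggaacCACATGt
Vcan (chr13:89742513-89742762, minus strand): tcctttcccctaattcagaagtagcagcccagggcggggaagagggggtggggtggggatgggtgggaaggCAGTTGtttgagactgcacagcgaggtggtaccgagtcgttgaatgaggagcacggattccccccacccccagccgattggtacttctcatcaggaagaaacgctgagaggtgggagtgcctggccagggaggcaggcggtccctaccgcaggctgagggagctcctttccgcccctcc
Lama5 (chr2:180225860-180226109, minus strand): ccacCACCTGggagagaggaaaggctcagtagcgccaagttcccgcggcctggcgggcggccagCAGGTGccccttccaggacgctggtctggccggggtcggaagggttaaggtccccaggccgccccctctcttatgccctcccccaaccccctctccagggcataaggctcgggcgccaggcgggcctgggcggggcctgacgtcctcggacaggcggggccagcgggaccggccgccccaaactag

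The E-box letters occurred 6 times before Dpt, 1 time before Vcan and 2 times before Lama5, and at least 1 time in 66.2% of 32851 RefSeq promoters of that length. TAATTA, a core that LIM homeodomain proteins bind, was in none of the 7 member promoters found in RefSeq and in 4.84% of all promoters. The GC box GGGCGG, searched on both strands, was found 0 times before Dpt, 2 times before Vcan and 4 times before Lama5, and in 32.7% of all promoters. GC content was 48.8% before Dpt, 62.4% before Vcan and 72.4% before Lama5, with a median of 52.4% over all promoters. The tail of the window lay in a GENCODE transcript for Vcan and Lama5 and not for Dpt. These matches describe letters in a window and not binding.

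Vcan encodes versican, a large hyaluronan-binding proteoglycan of loose matrix. Its values were 86.8, 99.7 and 89.6 in siRNA 1, 2 and 3, against 148, 155 and 172 in vehicle 1, 2 and 3. The highest siRNA library was well below the lowest vehicle library. Vcan fell by 0.78 ± 0.06 on the log2 scale (SE, adjusted p = 7.64e-09, limma), and by 0.72 without vehicle 3.

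Dpt had values of 19.97 and 16.4 in siRNA 1 and 2, against 31.2, 31.9 and 32.2 in vehicle 1, 2 and 3. The siRNA 3 cell of Dpt was in a date format and was not used. Dpt fell by 0.81 ± 0.09 (adjusted p = 6.62e-07, limma), the largest fall among the members. Its vehicle values were tight, 31.8 ± 0.523 (SD, n = 3), and vehicle 3 was 1.02 times the mean of the other 2.

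Htra3 had values of 86.6 and 93.5 in siRNA 1 and 3, against 108, 112 and 120 in vehicle 1, 2 and 3, with the siRNA 2 cell in a date format. It fell by 0.33 ± 0.06 (adjusted p = 1.46e-04, limma). Col3a1, the chain of type III collagen, which accompanies type I collagen in stretchable tissues, had 344, 354 and 346 in siRNA 1, 2 and 3, against 380, 391 and 438 in vehicle 1, 2 and 3. Col3a1 fell by 0.21 ± 0.05 (adjusted p = 0.00117, limma), a change of 0.864-fold in the means, and by 0.15 without vehicle 3. With the libraries centred on their median it fell by 0.14 (adjusted p = 0.0138, limma). The siRNA libraries lay close together, and vehicle 3 was the highest vehicle library.

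Col16a1 and Lama5 rose. Col16a1 encodes a minor collagen with interrupted triple helices that sits at the edge of fibrils and microfibrils. It had 149, 148 and 141 in siRNA 1, 2 and 3, against 120, 131 and 128 in vehicle 1, 2 and 3, a rise of 0.21 ± 0.05 (adjusted p = 0.00122, limma). Lama5 had 89.3 and 102 in siRNA 1 and 2, with the siRNA 3 cell in a date format, against 58.7, 69.6 and 69.0 in vehicle 1, 2 and 3. The 2 siRNA values were above all 3 vehicle values. Lama5 rose by 0.54 ± 0.08 (adjusted p = 9.74e-06, limma), or 0.58 without vehicle 3.

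**Figure D3:**
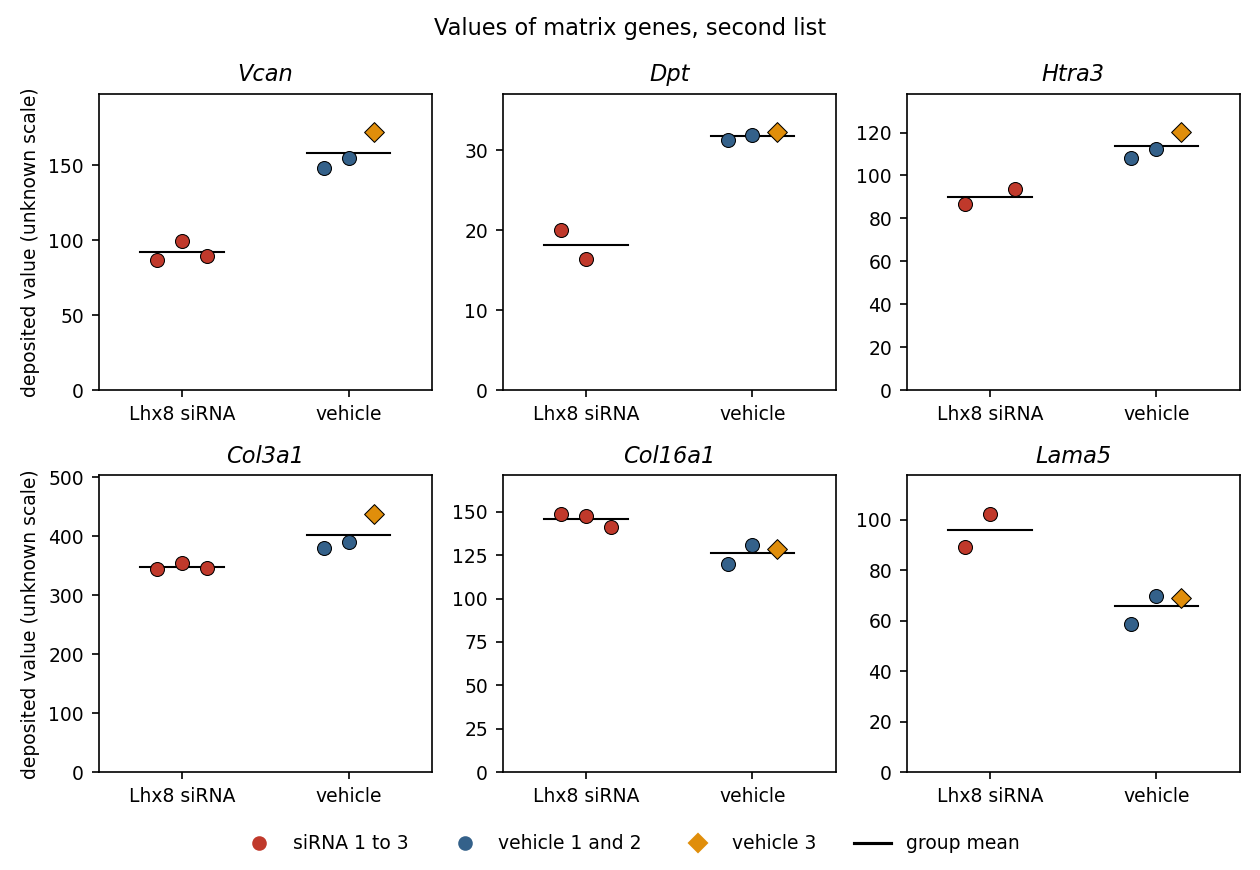
Deposited values (linear axis from 0, unknown scale) of the 6 members in the second list, with Lhx8 siRNA (left) and vehicle (right). Each point is a library, vehicle 3 is the diamond, the line is the group mean, and date-format cells are not drawn. Vcan, Dpt, Htra3 and Col3a1 lie lower with siRNA, Col16a1 and Lama5 higher, and vehicle 3 stays near the other vehicle libraries.

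Single-gene exact permutation tests cannot reach 0.05 here, since 3 against 3 libraries allow p = 0.1 at the least and 2 against 3 allow 0.2. Vcan, Col3a1 and Col16a1 stood at 0.1 and Dpt, Htra3 and Lama5 at 0.2. Over the 273 genes with all values, the profile of Col3a1 was closest to that of Mmp19, another matrix metalloproteinase, with a root mean square difference of 0.03 in centred log2 values. Col16a1 was closest to Esyt1 (0.01), and Vcan to Rassf2 (0.12).

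The 3 members present in both lists did not behave alike in them. For Lama5 the 2 lists pointed in opposite directions, with a log2 fold of -1.59 in the counts (-0.28 without vehicle 3, neither past the threshold) and a rise of 0.54 in the second list. Dpt fell by 0.81 in the second list, and its counts without vehicle 3 gave -0.07 ± 0.17. Htra3 was lower with siRNA in both. Without vehicle 3 its counts, 5 to 19 a library, gave -0.96, not past the threshold (adjusted p = 0.441, edgeR). The second list gave -0.33. The libraries carry the same names in both lists, so these are not independent comparisons, and their difference was not tested because the units differ.

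Vehicle 3 itself was unlike in the 2 lists. It stood at 7.12, 11.9 and 5.45 times the mean of vehicle 1 and 2 in the counts of Dpt, Htra3 and Lama5, and at 1.02, 1.09 and 1.08 times in their second list values. Over the 14 shared genes with all 3 vehicle values, the ratio ran from 2.20 to 115 by counts and from 1.00 to 1.14 by second list values. The levels did not run in parallel either. In vehicle 1 and 2 Dpt had 691 counts per kilobase and a mean second list value of 31.5, whereas Lama5 had 2.41 counts per kilobase and a value of 64.1, and Htra3 5.45 counts per kilobase and a value of 110. The second list value per count per kilobase was 0.0456 for Dpt, 20.2 for Htra3 and 26.6 for Lama5, in a range of 0.0456 to 134 over the shared genes. The second list is thus not the count list on another scale, and what was done to make it was not stated.

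**Figure D4:**
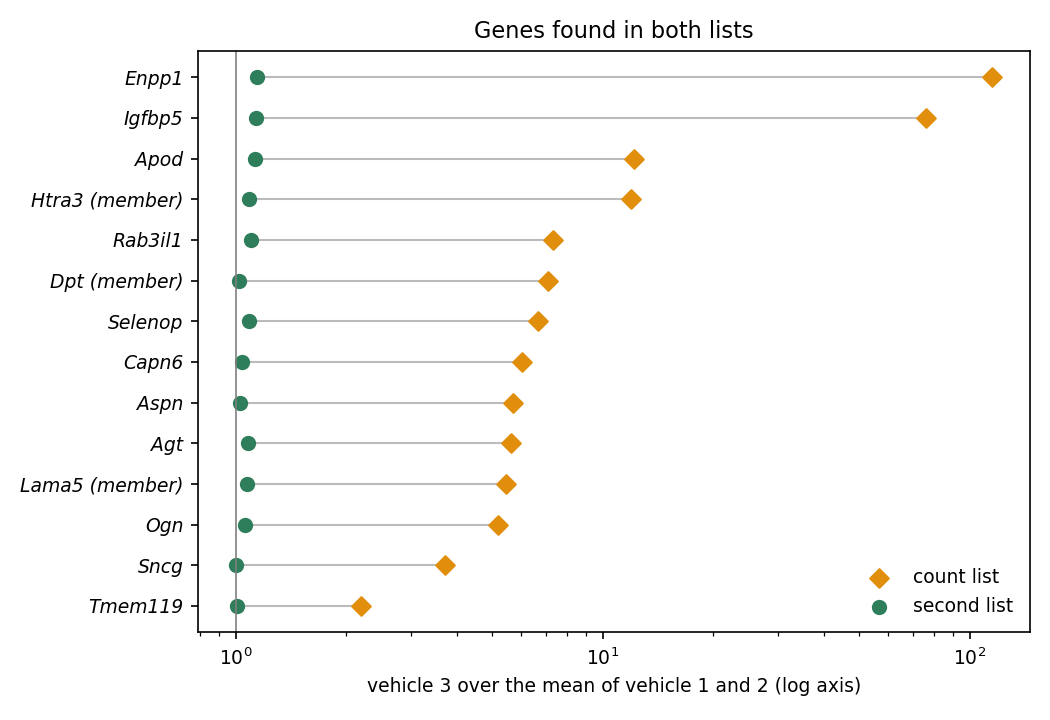
Ratio of vehicle 3 to the mean of vehicle 1 and 2 (log axis) for the 14 genes with all vehicle values in both lists, ordered by the count list ratio. Diamonds are estimated counts (2.20 to 115) and circles are second list values (1.00 to 1.14). Dpt, Htra3 and Lama5 are the members among them.

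Around the members, a wider matrix list of 112 genes was written from general knowledge, of which the count list held 11 and the second list 39, members included. In the count list 0 of the 11 passed, and 10 were highest in vehicle 3. When vehicle 1 or vehicle 2 was left out 1 of them passed, Igfbp5, which is no member. The 5 that are not members were Aspn, Ogn, Fbn1, Igfbp5 and Dmp1. Aspn, the collagen-binding proteoglycan asporin, was counted 82, 93 and 112 times in the siRNA libraries, against 139, 136 and 785 times in the vehicle libraries, and its groups did not overlap. Fbn1, the microfibril protein fibrillin 1, had 368, 281 and 440 counts in siRNA libraries, against 234, 312 and 1672 in vehicle libraries. Dmp1, a mineralised matrix protein, was the exception to the pattern, at 46, 38 and 37 counts in siRNA libraries, against 29, 24 and 2 in vehicle libraries. The median log2 fold of the 11 was -1.68, and 0.17 without vehicle 3, where 5 were negative and 5 positive.

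In the second list 34 of the 39 had at least 2 usable values in each group, and all 34 passed limma's test, 20 lower and 14 higher with siRNA. Their median log2 difference was -0.21, against 0.13 over the 496 genes. Without vehicle 3 the medians were close, at -0.15 for 31 matrix genes and -0.10 for the 409 genes of the list. Over the 273 genes with all 6 values the list median was -0.15. Of the matrix genes tested, 23 had all 6 values. Aspn, Fmod, Tnxb, Adamts1 and Tgm2, like the members Dpt, Htra3 and Lama5, rested on 2 siRNA values each. Col5a3, Matn2 and Plat rested on 2 vehicle values each and could not be fitted without vehicle 3. The background is again 98.4%, so the counts below describe directions and no enrichment.

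Of the genes written, 4 of 10 basement membrane genes were tested, and 2 of 13 protease inhibitors and cross-linking enzymes. All of these were higher, and the tested adhesive glycoproteins and proteases were mostly lower. Over the list 48.8% of the tested genes passed lower and 49.6% higher. So few genes of a selected list do not speak for their class. All 4 basement membrane genes rose with siRNA: Lama5, Lamb2, the laminin beta 2 chain (117 ± 6.64 with siRNA and 98.5 ± 7.24 with vehicle, SD, n = 3 each), the linker Nid2 (38.6 ± 3.03 and 32.1 ± 1.48) and the proteoglycan perlecan, Hspg2 (389 ± 17.3 and 337 ± 35.8). Of 7 tested collagens 4 rose and 3 fell. Besides Col16a1 these were Col5a2, Col6a3 and Col12a1, which rose by 0.16 to 0.17, while Col3a1, Col6a2 and Col5a3 fell, Col5a3 by 0.43. The chains of one collagen thus parted, with Col6a3 higher and Col6a2 lower. Col6a1 had a single usable vehicle value (1807, 1894 and 1854 with siRNA and 2006 in vehicle 1) and was not tested.

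Among 5 proteoglycans, Vcan, Aspn and Ogn fell, whereas Fmod, the collagen-binding fibromodulin, rose by 0.53 ± 0.09 and Prelp, which anchors basement membranes to collagen, rose by 0.17 ± 0.05. Of 10 tested microfibril and adhesive glycoproteins 9 fell. They included Dpt, Tnxb (tenascin X, by 0.66), Fbln1 (fibulin 1, by 0.48), Spp1 (osteopontin, by 0.39) and Thbs2, thrombospondin 2, by 0.31. The values of Tnxb were low, at 3.62 and 4.58 in siRNA 1 and 2 against 5.52, 6.74 and 7.34 with vehicle. Thbs1, thrombospondin 1, was the one that rose, at 934, 994 and 998 with siRNA against 639, 696 and 714 with vehicle (by 0.51 ± 0.05, adjusted p = 6.51e-08, limma).

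Of 6 tested proteases 5 fell and 1 rose. Along with Htra3, the tissue plasminogen activator Plat fell by 0.44, the gelatinase Mmp2 by 0.22, Mmp19 by 0.21 and the procollagen C-proteinase Bmp1 by 0.16, and Adamts1, which cleaves versican and aggrecan, rose by 0.33 ± 0.09. Mmp9 was not among the second list genes analysed here. The 2 cross-linking enzymes tested rose. Lox, the lysyl oxidase that cross-links collagen and elastin, rose by 0.29 and the transglutaminase Tgm2 by 0.24. Among the others not tested, Sparc had 2773, 2872 and 2718 with siRNA and 3019 in vehicle 1, Tnc 87.6 in siRNA 3 against 60.9, 65.9 and 66.9 with vehicle, Igfbp5 8.45 in siRNA 3 against 13.9, 15.5 and 16.7 with vehicle, and Adamts2 44.5 in siRNA 3 against 51.4, 57.8 and 56.8 with vehicle.

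Of the markers of cell types in the second list, 7 passed lower with siRNA and 1 higher, where 98.4% of the tested genes passed and 48.8% passed lower. Pdgfra, a receptor of fibroblasts and fat cell precursors, the stem cell antigen Ly6a and the transcription factor Twist2 each passed lower with siRNA, as did the adipocyte genes Adipoq, Lpl and Scd1 and the cartilage factor Sox9, while the muscle actin Acta1 passed higher (by 0.78). Without vehicle 3 Scd1 no longer passed (adjusted p = 0.125, limma), and Pdgfra, Sox9 and Acta1 could not be fitted. Adipoq rested on 2 low values in each group, 3.47 and 2.83 with siRNA against 8.76 and 8.96 with vehicle. The part of these markers in the fall of Vcan, Dpt, Htra3 and Col3a1 was not tested. In bulk RNA, fewer cells of a type and less RNA per cell cannot be told apart.

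**Figure D5:**
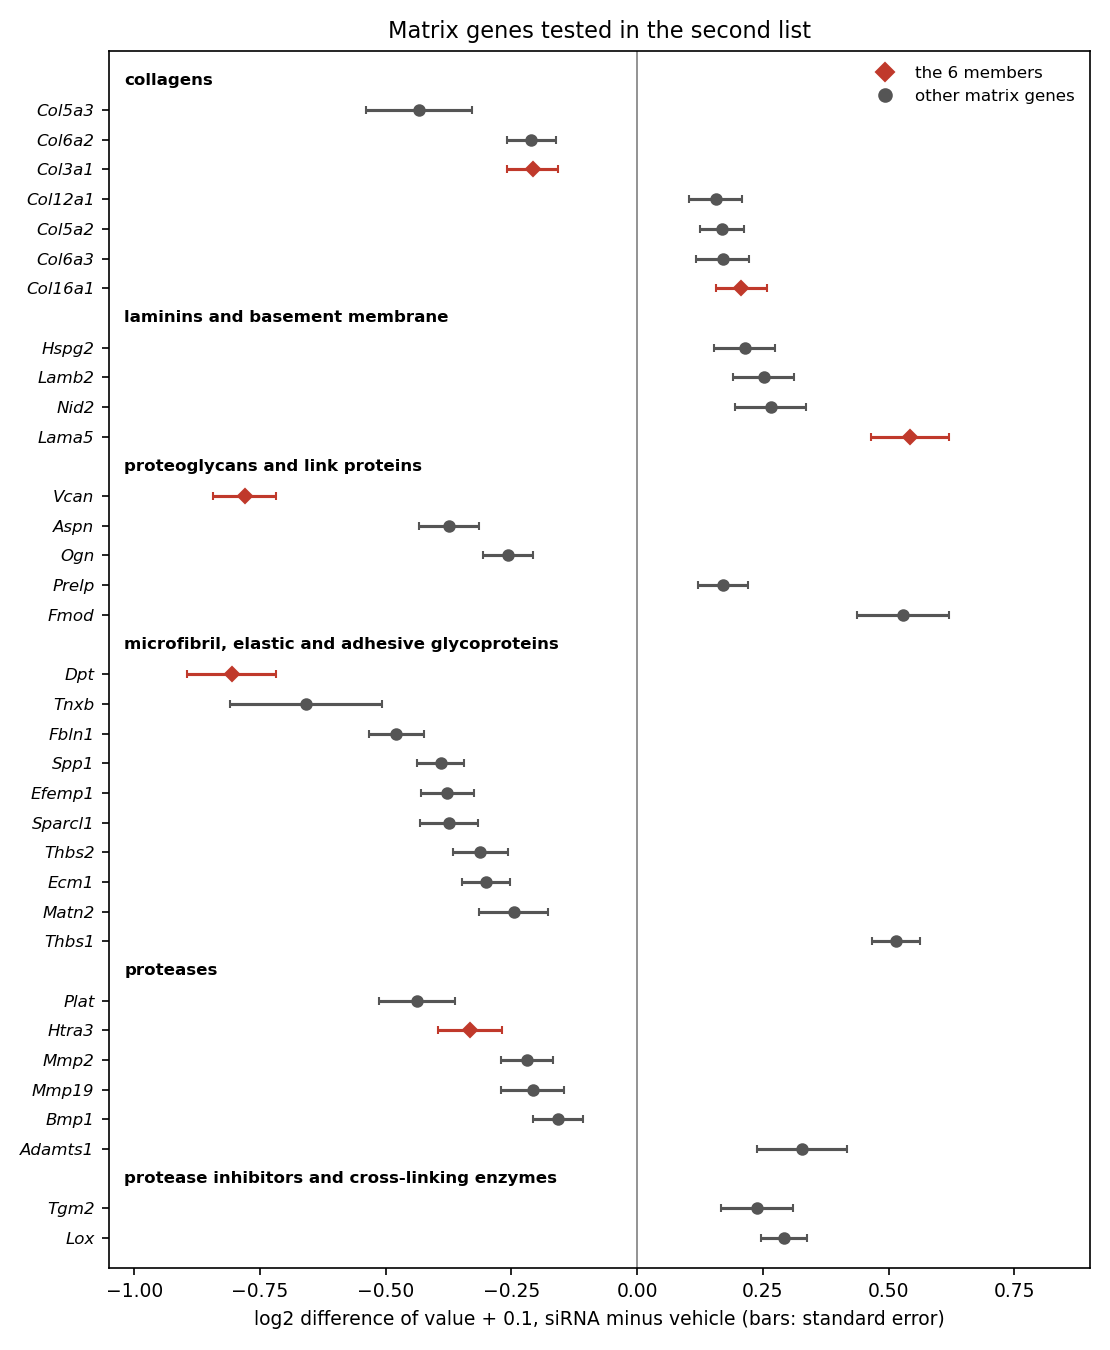
Log2 difference of the value plus 0.1, siRNA minus vehicle, with its standard error, for the 34 matrix genes tested in the second list, grouped by role. Diamonds are the 6 members. The 4 basement membrane genes and 2 cross-linking enzymes lie right of 0 (higher with siRNA), and 9 of 10 glycoproteins and 5 of 6 proteases lie left of it.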

How the data were processed

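The authors sequenced poly(A) RNA on a DNA nanoball platform. HISAT, Bowtie2, RSEM and DESeq2 are named by the study's methods or the submitters' notes, with no version or genome build given in the sources used here. Values of the count list are estimated counts that the authors deposited as read counts (86.8% whole numbers). The second list was deposited by the authors under the same heading, but only 0.920% of its values are whole, and it was treated as a score of unknown scale. Of its 3612 cells 528 were in a date format and 42 were calendar dates. Neither were used (526 of those in a date format equal the mean of the other values of their group within about 0.01). The authors' deposited group means, log2 ratio and p-value columns were not used.

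Estimated counts were rounded and tested with edgeR 4.0.16 (quasi-likelihood, unpaired, 1 common library size because the totals of a selected list are no library sizes, summed count of at least 10). Standard errors are the log2 fold over the root of F. For the second list limma 3.58.1 with a trend was fitted to log2(value + 0.1) of genes with at least 2 usable values in each group. P-values were adjusted over each list by the Benjamini-Hochberg method. DESeq2 1.42.0 and limma-voom were alternatives. Only the edgeR and limma tests were also run on simulated data, and the outcome is not given here, so no support is drawn from it. Columns were matched to samples by title. Named are the members, the 6 most abundant other matrix genes and those whose groups do not overlap, and not all of these are described. The promoters and motifs were chosen after the values were seen. Members and gene lists were chosen with earlier results of these data known. Results for some items are not reported here.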

Additional observations from a re-analysis of the deposited data

How the results depend on the processing

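The 6 members of the second list kept their direction and their side of the threshold in all 69 fits over 13 alternatives, although Dpt, Htra3 and Lama5 could not be fitted with a single siRNA value or among genes with all 6 values. The list had 488 passing genes, 271 among the 273 genes with all 6 values and 370 to 398 when a library was left out, since fewer genes could then be tested. In the count list Mmp9 reversed to 0.48 under TMM, 0.40 with column totals as library sizes and 0.44 with DESeq2's own size factors. It ranged from -1.48 to 0.47 when a library was left out. Under the same scalings, in that order, Dpt shrank from -1.68 to -0.09, -0.19 and -0.13. Lama5 shrank from -1.59 to -0.17, -0.26 and -0.20, and Htra3 from -3.16 to -1.33, -1.47 and -1.39. Cilp ranged from -4.05 to 1.17 when a library was left out, positive only without vehicle 3. Mfap4 could not be fitted without vehicle 3 or with a summed count of at least 50. With TMM scaling and without vehicle 3 together, an alternative chosen after seeing the data, Mmp9 was 0.50 and Cilp 1.21, and 1 gene of the list passed, Laptm4b, which is no member. The number of passing genes in the count list was 0, 1 with DESeq2's own size factors (Gm49392), and 0 to 6 when a library was left out (6 without vehicle 1, 5 without vehicle 2), none of them a member. With the replicate number as a block (replicate block) 0 genes of the count list and 445 of the second list passed, and the log2 fold of Dpt in the counts was -0.96. Deviations of libraries with the same number correlated weakly (r of 0.05 to 0.12 in the count list and 0.03 to 0.25 in the second list), not above 0.1 in every pair, and not every siRNA library correlated best with its own number, so the numbers were not taken as pairs. Depth limits Mfap4, Cilp, Htra3 and Lama5, whose counts outside vehicle 3 were 0 to 31.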
